A study of Mus musculus with 4 samples.

Results

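A set of 8 genes of the granulocyte and macrophage programme were examined for IgD peaks in pro-B cells, out of 21774 protein-coding genes with a position on the assembled chromosomes. They were Lyz2, Mpo, Ctsg, Elane, Prtn3, Cebpe, Csf1r and Csf3r, and for each one every deposited peak that touched the gene body or the 20000 bp on either side was taken. The genes were chosen by values of these same lists, with pair 2 summits near the ends of several of them already known, so the counts below describe them and carry no test. Chromatin immunoprecipitation followed by sequencing was carried out on B220+IgM-CD43+ pro-B cells, an early B cell stage, sorted from the bone marrow of WT mice. In 2 libraries the antibody was anti-ms IgD, and in 2 it was ms IgG, the isotype control. Genotype, cell type and sort were the same in all 4. Library IgD1 was set against IgG1 and IgD2 against IgG2, which gave 1 peak list each, called pair 1 and pair 2 here. The sources used here give no age, sex or number of mice, and do not say whether the numbers mark separate animals. Peak lists hold no RNA values, so neither the pro-B identity of the cells nor the presence of myeloid cells among them was checked against markers.

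Neutrophil precursors pack antimicrobial proteins into granules. Myeloperoxidase (Mpo), neutrophil elastase (Elane), proteinase 3 (Prtn3) and cathepsin G (Ctsg) are stored in the azurophil granules, the first to form, and lysozyme M (Lyz2) is made by neutrophils and macrophages. Cebpe encodes the C/EBP factor of late granulocyte maturation, and Csf1r and Csf3r encode the receptors for M-CSF and G-CSF, the growth factors of the macrophage and neutrophil lines. PU.1, an ETS factor that binds sites with a GGAA core, and C/EBP factors are known activators of this programme.

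The promoter sequences come first because 1 of them lay partly under a called peak. RefSeq promoters on GRCm38.p6 (the assembly called mm10) were matched for 6 of the 8 genes, without Cebpe and Csf1r. Below are the 250 bases before the transcription start of Mpo, whose promoter a pair 2 peak overlapped, of Prtn3, where a peak began just after the start, of its neighbour Elane, which lay near the same peak, and of Ctsg, whose peak lay at the opposite end of the gene. Each reads 5′ to 3′ on the gene's own strand, and capitals mark GAGGAA, a PU.1-type motif.
Mpo, chr11:87793534-87793783, plus strand: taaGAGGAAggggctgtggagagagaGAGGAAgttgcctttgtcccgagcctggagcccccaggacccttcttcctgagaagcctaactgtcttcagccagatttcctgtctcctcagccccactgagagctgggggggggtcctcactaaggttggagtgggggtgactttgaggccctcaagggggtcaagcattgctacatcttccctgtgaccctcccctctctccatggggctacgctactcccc
Prtn3, chr10:79879417-79879666, plus strand: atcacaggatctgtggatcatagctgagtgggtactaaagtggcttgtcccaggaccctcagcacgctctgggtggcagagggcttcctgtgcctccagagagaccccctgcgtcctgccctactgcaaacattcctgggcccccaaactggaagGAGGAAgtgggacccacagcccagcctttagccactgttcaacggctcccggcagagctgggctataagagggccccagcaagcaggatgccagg
Elane, chr10:79886062-79886311, plus strand: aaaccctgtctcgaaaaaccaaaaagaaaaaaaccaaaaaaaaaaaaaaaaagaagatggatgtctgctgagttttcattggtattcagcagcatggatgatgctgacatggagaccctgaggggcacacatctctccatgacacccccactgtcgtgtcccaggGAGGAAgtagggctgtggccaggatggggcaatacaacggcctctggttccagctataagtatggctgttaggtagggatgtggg
Ctsg, chr14:56102575-56102824, minus strand: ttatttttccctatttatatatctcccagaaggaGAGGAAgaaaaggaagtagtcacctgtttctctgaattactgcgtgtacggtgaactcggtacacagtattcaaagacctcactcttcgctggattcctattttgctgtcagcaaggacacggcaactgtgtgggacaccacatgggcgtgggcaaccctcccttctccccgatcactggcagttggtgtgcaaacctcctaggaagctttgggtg

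The first 67 bases of the Mpo sequence lay under the peak, and both of its GAGGAA matches are among them. The summit fell on base 32, the last base of the second match, which spans bases 27 to 32. This peak was the weakest of the 13 pair 2 peaks described below, with 95.2% of the list above it by -log10 q. The matches in Prtn3 (bases 156 to 161), Elane (166 to 171) and Ctsg (35 to 40) lay under no peak. Searched on both strands, GAGGAA was present in the 250 bases of 5 of the 6 promoters, the 4 above and that of Csf3r, and in 22.2% of 21263 promoters of protein-coding genes. The Csf3r match lay under no peak either, so Mpo alone had matches under one. These are 6 promoters of hand-picked genes, and no link between the motif and the peaks is read from that share. Lyz2 had none. At least 2 matches, as in Mpo, were found in 3.29% of all promoters. None of the 6 held TTGCGNAA, a C/EBP-type motif that covers TTGCGCAA (0.823% of all promoters for the first and 0.198% for the second), or the E2F-type motifs TTTCCCGC (1.19%) and TTTGGCGC (0.508%). Motifs this rare would seldom turn up in 6 promoters, so nothing is read from their absence. A match is a run of letters and not a measured binding site, and a summit resting on few fragments has an uncertain place.

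Pair 1 had no peak in the window of any of the 8 genes, against 10.7% of all protein-coding genes with one. Pair 2 had a peak in the window of 7 genes, all but Cebpe, against 61.5% of all protein-coding genes. The members are compact, from 1812 bp (Cebpe) to 25568 bp (Csf1r), and among the 13308 coding genes no longer than Csf1r the shares were 8.7% in pair 1 and 51.5% in pair 2. No member had peaks of both lists in its window, against 8.29% of all coding genes. The pair 2 peaks in these windows thus had no pair 1 peak in the same window. With only 8 genes, a count of 0 is close to these small shares. Nothing about the members is read from it. Pair 1 is the shorter list, with 11375 peaks against 40628. Its nearest peak lay between 47.5 kb (Cebpe) and 929 kb (Prtn3) from the members, with a median of 516 kb against 325 kb over all coding genes. In pair 2 the nearest peak lay 5.41 kb away or less for every member but Cebpe, where it was 45.0 kb away, and the median was 0.112 kb against 10.1 kb. Short pair 2 distances were partly built in, as summits near several members were known when the genes were chosen. Nothing is read from that gap. Within 500000 bp on either side of a member lay 0 or 1 peak in pair 1, and 10 (Mpo) to 26 (Cebpe) in pair 2. In pair 1 that was at most 0.998 per Mb, against 2.72 to 4.99 per Mb over the members' chromosomes. A chromosome mean does not show what is usual around a gene, and no such count was made for all coding genes. Nothing is therefore read from the low pair 1 values. For pair 2 it was 9.89 per Mb at Mpo and 26.0 at Cebpe, against 16.6 and 15.6 over their chromosomes.

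**Figure D1:**
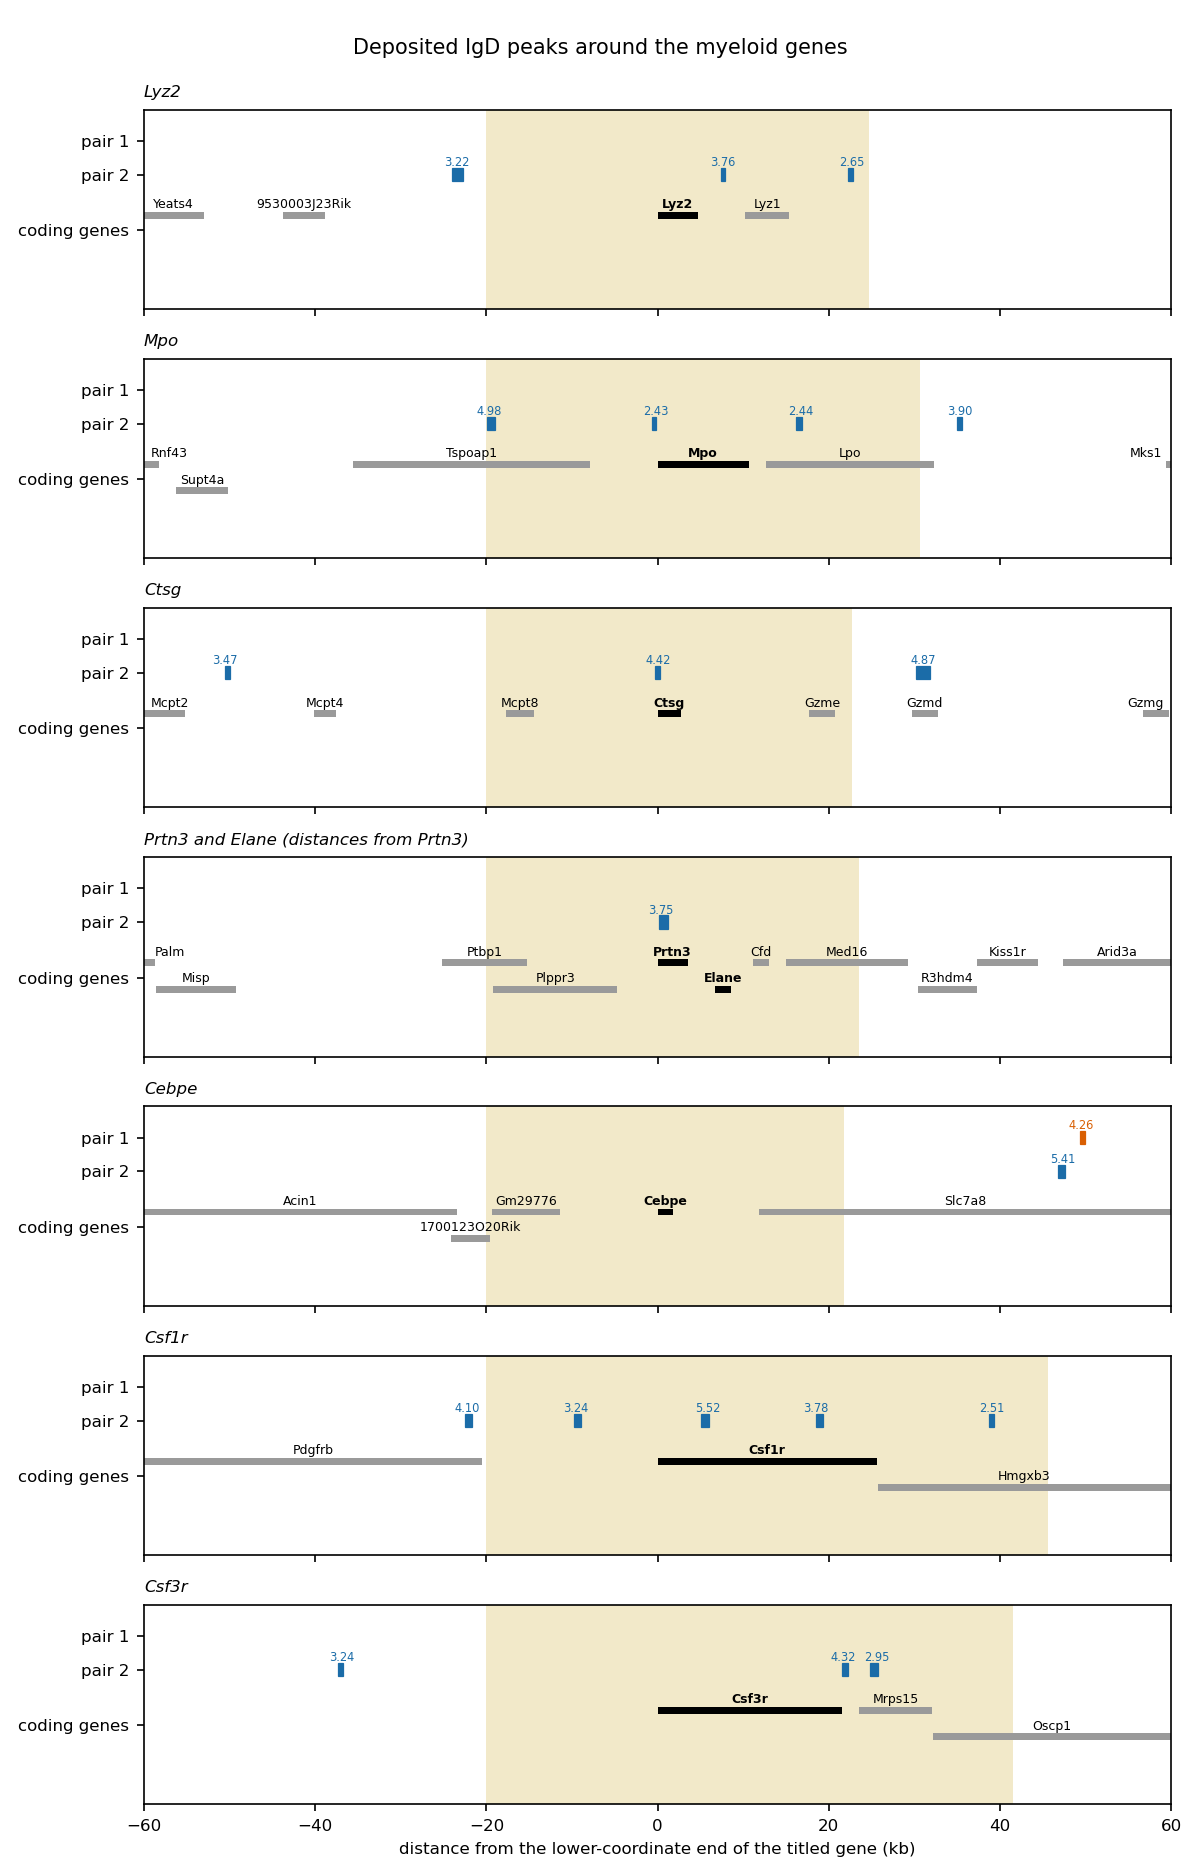
Peaks of pair 1 (orange) and pair 2 (blue) around each gene, with the fold enrichment above each peak, as distance in kb from the gene's lower-coordinate end. Bars below are protein-coding genes (members black), and shading marks the 20 kb window of the titled gene. No orange peak lies in a shaded window, and the Cebpe window is empty.

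The 7 genes shared 13 distinct peaks in pair 2. The fold enrichment of a peak is the authors' value at its summit, IgD over the local background, and the -log10 q is theirs as well. From the fold and the p-value the number of IgD fragments at the summit was solved, assuming that 1 was added to IgD and background alike and that IgD fragments were unscaled. Ranges in brackets after fragments are 95% exact Poisson intervals, which cover counting error alone. There is no replicate error on any of these values, as each list stands on 1 pair of libraries. At the commonest background of pair 2, 2.699 fragments, 1 fragment moved the fold by 0.270.

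Among the azurophil granule genes, Prtn3 carried the peak with the most fragments. Prtn3 (chr10:79879667-79883174) encodes a serine protease of the granule. Its peak spanned 79879801 to 79880901, from 134 to 1234 bases after the transcription start, with the summit 409 bases after it, inside the gene. The summit held 38 fragments (26.9 to 52.2) over a background of 9.40, which gave a fold of 3.75 and a -log10 q of 9.70. Of all pair 2 peaks 9.58% had a higher -log10 q, and 52.1% had a higher fold. The background was high: 0.222% of pair 2 peaks had a higher one. Exons are not part of the gene table, so whether the summit is exonic was not assigned.

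Elane (chr10:79886312-79888216), the elastase gene next to Prtn3 on the same strand, had no peak of its own. The same Prtn3 peak put it among the genes with a peak, at a gap of 5411 bp. Its summit lay 6236 bases before the Elane start. Cfd, the complement factor D gene on the far side of Elane, and Plppr3, Ptbp1 and Med16 had this peak as the single one in their windows as well. Prtn3 and Elane are therefore 1 locus with 1 peak and not independent cases.

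At Mpo (chr11:87793784-87804412) 3 peaks lay in the window, and the one nearest the gene was the weakest of all 13. It spanned 87793071 to 87793600, with the summit 219 bases before the transcription start, a fold of 2.43 and a -log10 q of 1.57. That came from 10 fragments (4.80 to 18.4) over 3.53. The list ends at a -log10 q of 1.30, and 95.2% of its peaks had a higher value. The summit also lay inside Gm34064, a gene that is not among the protein-coding ones. A second weak peak, of fold 2.44 and -log10 q 1.60, had its summit inside Lpo, the lactoperoxidase gene that follows Mpo. The strongest of the 3, of fold 4.98 and -log10 q 7.57 from 19 fragments (11.4 to 29.7) over 3.02, had its summit 19660 bases before the Mpo start, inside Tspoap1, a neighbouring gene. The stronger signal in this window was thus at a neighbour and not at Mpo.

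Ctsg (chr14:56099885-56102574, minus strand) had 1 peak, which covered the end of the gene. It ran from 56099619 to 56100113, and the summit was 8 bases inside the lower-coordinate end, 2681 bases after the transcription start. The fold was 4.42 with a -log10 q of 6.57, from 19 fragments (11.4 to 29.7) over 3.53. Ctsg stands in a cluster of 15 genes of related serine proteases, the mast cell proteases and granzymes, that spans 321 kb of chromosome 14. Pair 2 had 6 peaks in the cluster, 18.7 per Mb against 15.6 per Mb over the chromosome, and pair 1 had 0. The other cluster genes with a peak in the gene body were Cma2 (fold 3.78), Gzmd (fold 4.87) and Gzmb, which encodes granzyme B (fold 5.16). Folds in the cluster ran from 3.47 to 5.16, and the Ctsg peak was the third of the 6 by fold. Genes of one family can share near-identical sequence, and how reads that map to several places were handled is not stated in the sources used here.

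Lyz2 (chr10:117277541-117282272, minus strand) had 2 peaks in its window, neither in the gene. The nearer one, 117284925 to 117285418, had its summit 2863 bases before the Lyz2 start and 2660 bp from Lyz1, which encodes the related lysozyme P. It lay between the paralogues, about as close to one as to the other. There were 16 fragments (9.15 to 26.0) over a background of 3.53, a fold of 3.76 and a -log10 q of 4.64. The farther one, 17473 bp from Lyz2 and beyond Lyz1, had a fold of 2.65 and a -log10 q of 1.85 from 10 fragments. A peak of fold 3.22 on the other side fell just outside the window, at a gap of 22754 bp.

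Of the receptor genes, Csf1r had the strongest peak of the 13 and the most peaks. Csf1r (chr18:61105572-61131139) encodes the M-CSF receptor, a tyrosine kinase of macrophages and their precursors. A peak inside the gene, 61110621 to 61111574, had a fold of 5.52 and a -log10 q of 10.3 from 24 fragments (15.4 to 35.7) over 3.53. Its summit lay 5871 bp from the lower-coordinate end, and 11.7% of pair 2 peaks had a higher fold. A second peak inside the gene, 61124072 to 61124873, had a fold of 3.78, equal to the median of the list, from 13 fragments (6.92 to 22.2). The other 2 lay outside, at a gap of 8960 bp on the side of Pdgfrb (fold 3.24) and inside Hmgxb3 at a gap of 13135 bp (fold 2.51, -log10 q 1.58). Another peak, inside Pdgfrb, was just outside the window at 21697 bp (fold 4.10). At least 4 peaks in the window were found for 8.45% of all coding genes and for 3.06% of those no longer than Csf1r, which is itself the longest of that set.

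Csf3r (chr4:126023441-126044975, plus strand), the gene of the G-CSF receptor, had its peaks past its end. The nearer one, 126045015 to 126045620, began 40 bp beyond the gene, with the summit 20477 bases after the transcription start. At its summit 16 fragments (9.15 to 26.0) stood over 2.93, which gave a fold of 4.32 and a -log10 q of 5.59. The farther one had its summit inside Mrps15, a mitochondrial ribosomal protein gene, with a fold of 2.95 and a -log10 q of 2.30 from 10 fragments. No peak lay in the body or at the start of Csf3r.

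Cebpe (chr14:54710363-54712174), the only transcription factor gene of the 8, had an empty window in both lists. The nearest peak of either list lay inside Slc7a8, an amino acid transporter gene. The pair 1 peak there had a fold of 4.26 from 15 fragments (8.40 to 24.7) and a gap of 47492 bp to Cebpe. The pair 2 peak had a fold of 5.41 from 19 fragments (11.4 to 29.7) and a gap of 45002 bp. The peaks did not overlap, as 1762 bp separated them, and their summits were 2074 bp apart. Of the 8 genes, Cebpe was the only one with a pair 1 peak within 50000 bp.

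**Figure D2:**
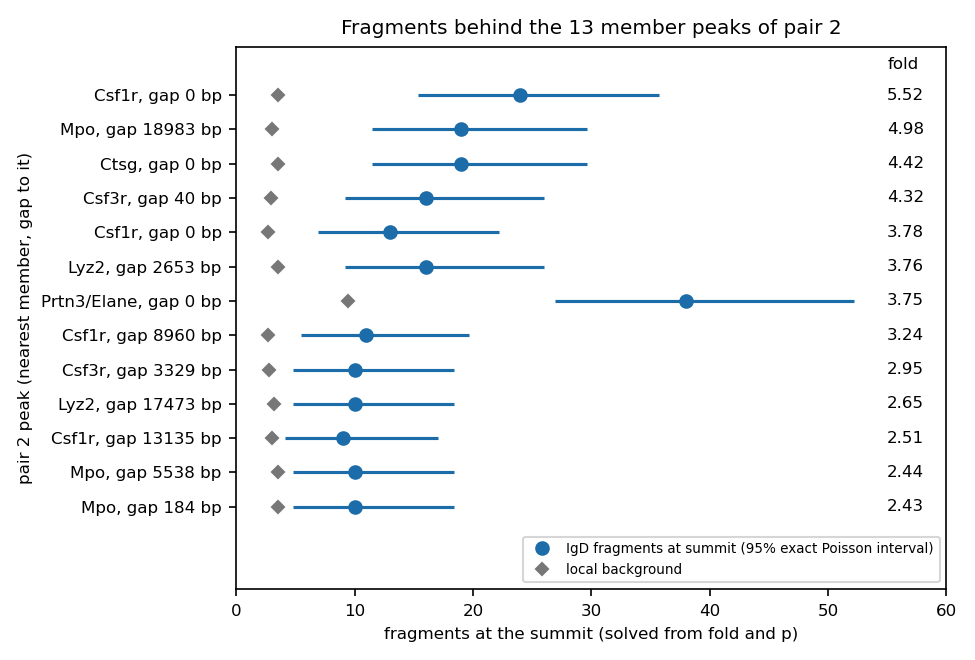
IgD fragments at the summit (circles, with 95% exact Poisson intervals) and local background (diamonds) for the 13 pair 2 peaks in the windows, ordered by fold, which is printed at the right. Prtn3/Elane has the most fragments, 38, and the highest background, 9.40, while the Mpo peak at a gap of 184 bp has the lowest fold, 2.43.

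As a set, the 13 peaks were ordinary members of the pair 2 list. Their median fold was 3.75 against 3.78 over the list, with a range of 2.43 to 5.52, and 4 of the 13 lay above the list's median. Their median width was 669 bp against 774 bp, with a range of 494 to 1101 bp. The share with a -log10 q of at least 5 was 38.5% (5 of 13) against 38.8%. The median number of fragments was 13 against 14. The 4 highest folds, at Csf1r, in Tspoap1 near Mpo, at Ctsg and at Csf3r, came from 16 to 24 fragments, and the lowest 4 from 9 or 10.

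The 13 peaks did differ from the list in where the background stood. In pair 2, 70.4% of peaks sat at the commonest background, 2.699 fragments to within 0.01, and the other 29.6% sat above it. Of the 13 member peaks 2 sat there, both at Csf1r, and 11 (84.6%) sat above. Most stood above it by little. The median background was 3.16 over the 13 peaks against 2.70 over the list. All but the Prtn3 peak (9.40) had a background of 3.53 or less. Over all 22023 pair 2 peaks within 20000 bp of a coding gene 33.8% sat above, and 38.0% did so near coding genes no longer than Csf1r. No test was made of this, because the peaks of 1 gene share their surroundings and the genes were chosen with results known.

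**Figure D3:**
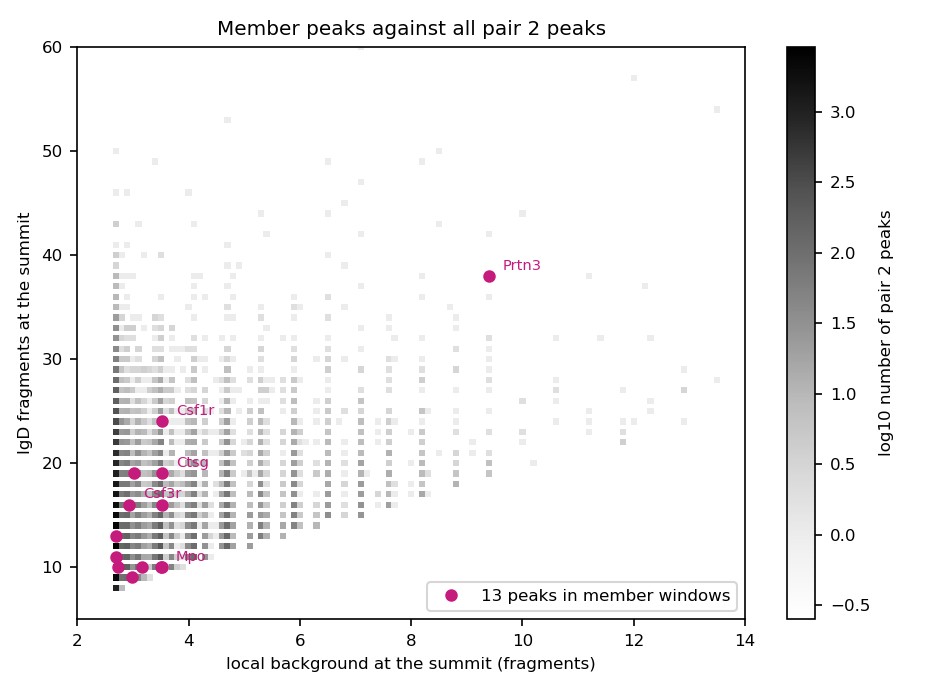
IgD fragments against local background at the summit for the pair 2 peaks (grey squares, shaded by the log10 number of peaks) and the 13 peaks of the myeloid genes (pink; those with a gap under 1000 bp are named, except the weaker Csf1r peak). The column of dark squares at the left is the commonest background, where 2 of the 13 lie, and peaks of the list beyond 60 fragments or a background of 14 fall outside the axes.

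The place of the summits relative to the genes was mixed. In pair 2, 3 genes had a peak that touched the gene body, Ctsg, Prtn3 and Csf1r, against 33.8% of all coding genes and 16.4% of those no longer than Csf1r. In pair 1 none did, against 6.28% and 3.76%. With peaks of a -log10 q of at least 5, 6 genes had one in the 20000 bp window of pair 2, all but Lyz2 and Cebpe, against 35.5% and 27.6%. Within 3000 bp of the body, at any q, the count was 6 genes, against 39.0% and 23.2%. Of the 6 genes with a known strand, 4 had a summit within 3000 bp of the transcription start (Prtn3, Lyz2, Mpo and Ctsg), against 10.1% of 17492 coding genes, and 2 had one within 3000 bp of the other end (Csf3r and Ctsg), against 9.54%. In pair 1 the count was 0 for both ends, against 1.94% and 1.62%. Ctsg counts in both because it is 2690 bp long. Lyz2, Mpo and Ctsg were among the genes picked out earlier for a summit near an end, so that nothing is read from these shares. A peak overlapped the promoter of 1 of the 6, Mpo, against 3.94% of promoters in pair 2 and 1.49% in pair 1.

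**Figure D4:**
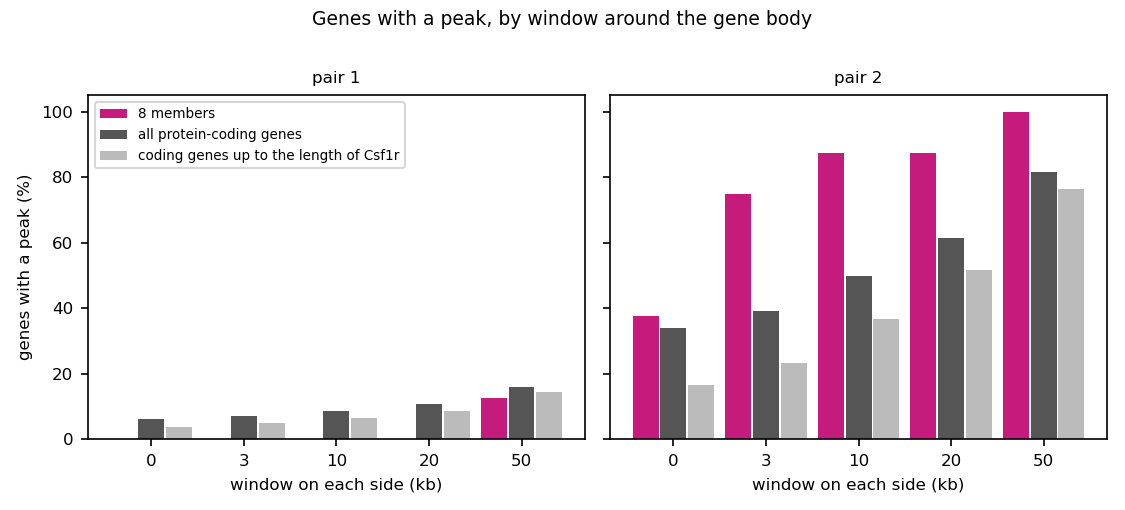
Percentage of the 8 members (pink), of all protein-coding genes (dark grey) and of coding genes no longer than Csf1r (light grey) with a peak, for windows of 0 to 50 kb on each side of the gene body, in pair 1 (left) and pair 2 (right). In pair 1 the members stay at 0 up to 20 kb, and in pair 2 they pass from 37.5% at 0 kb to 100% at 50 kb, where all coding genes pass from 33.8% to 81.5%.

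The genes around the members were counted in the same way. The 3 protein-coding genes on each side of every member made 42 distinct genes. In pair 2, 29 of them (69.0%) had a peak in their own window of 20000 bp, again against 61.5% of all coding genes, and 14 (33.3%) had one in the gene body, against 33.8%. In pair 1, 1 of the 42 did, Slc7a8, by either count. Windows of neighbours overlap those of the members, so many of the 29 hold a peak already described.

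A wider list of 60 myeloid genes, chosen with the earlier results known, gave shares near those of all genes. In pair 2, 35 of the 60 (58.3%) had a peak in the window against 61.5%, and in pair 1, 6 (10.0%) against 10.7%. The highest folds in pair 2 were near Ngp, a neutrophil granule gene (7.47, from 29 fragments, 5957 bp from the gene), and inside Cybb, which encodes a subunit of the phagocyte NADPH oxidase (7.03, from 25 fragments). Mrc1, the mannose receptor gene of macrophages, followed with 6.22, inside the gene. Next came Fcgr1, an Fc receptor gene, with 5.98 at a gap of 14341 bp. Cebpa, which encodes the C/EBP factor of early granulocyte commitment, had 5.95 at a gap of 6356 bp. Il34 had the same fold as Cebpa, but inside the gene. All but Cebpa and Mrc1 had no peak in pair 1.

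Of these 60 genes, 5 had a peak of both lists in the window, Fcgr3, Mrc1, Chil3, Cebpa and Adgre1, or 8.33% against 8.29% of all coding genes. In the Mrc1 window a pair of peaks overlapped with summits 82 bp apart and folds of 2.89 in pair 1 and 2.97 in pair 2. In the window of Fcgr3, an Fc receptor gene, 3 pairs of peaks overlapped. The closest summits there were 867 bp apart, in wide peaks of 3030 bp in pair 1 and 5469 bp in pair 2. These overlaps lay outside the genes, as no pair 1 peak was within 3000 bp of any of the 60. In the windows of Adgre1, Cebpa and Chil3 no peaks overlapped, and the closest summits were 2940, 14525 and 34696 bp apart. Irf8, named because it was the 1 gene with a pair 1 peak alone, had a fold of 2.91 there.

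Genes that pro-B cells are known to use were no more often near a peak. Of 15 early B-lineage genes, 8 (53.3%) had a peak in the window in pair 2, against 61.5% of all coding genes, and 0 in pair 1, against 10.7%. The highest folds in pair 2 were near Tcf3, which encodes the E2A factors (9.48, from 36 fragments, 10430 bp from the gene), inside Ebf1 (5.95) and near Pax5 (5.93), both genes of B-lineage commitment. Outside Dntt, at a gap of 7867 bp, the fold was 4.33, and outside Cd79a, at a gap of 14645 bp, it was 3.78. The wider myeloid list lay near the share of all coding genes in both pairs, and the B-lineage list holds only 15 genes. Nothing is read from these gaps, and no test of the difference between the lists was made.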

How the data were processed

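Peak lists were analysed as deposited, 1 for each numbered pair of IgD and IgG libraries. The submitters' processing notes name HISAT2, MACS2, ChIPseeker and mm10, without versions or settings. In each narrowPeak list the authors deposited, per peak, its fold enrichment as a ratio, the -log10 p, the -log10 q, an integer score that was not used, and the summit's offset, another value that gives its place. Library depth is not given in the sources used here.

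Gene positions came from NCBI RefSeq on GRCm38.p6, and strands and promoter sequences from the RefSeq promoter table. Genes on scaffolds, 348 in number, were left out. A gene had a peak when any base of the peak lay in the gene body or within 20000 bp. Fragments and background were solved from fold and p, which matched every deposited -log10 p of pair 2 with a largest error of 0.000234. The members and lists were chosen with earlier results of these data known, and no test was run. The rule for names took all members, the genes beside them or holding a summit, and, from the wider lists, genes with peaks of both lists and the 5 highest folds of pair 2. Alternatives were other windows, summits only, stricter q and fold, equal list lengths, narrow peaks and each pair alone. Procedures were tested on simulated data. Computation used scipy 1.17.1, pandas 2.3.3 and numpy 2.4.6 in Python 3.11.15, and plots matplotlib 3.10.9.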

Additional observations from a re-analysis of the deposited data

How the results depend on the processing

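The 7 genes with a pair 2 peak became 6 at a window of 3000 bp (39.0% of all coding genes) or at a -log10 q of at least 5 (35.5%). With the pair 2 list shortened to the length of pair 1 they became 5, against 28.5% of all coding genes and 21.5% of those no longer than Csf1r. With a fold of at least 5 the count was 1, Csf1r, against 21.1% of all coding genes. With either list counted, leaving out a replicate pair gave 0 members (pair 1 list alone) to 7 (pair 2 list alone), so every member peak rests on pair 2. At a window of 50000 bp pair 1 had 1 member, Cebpe, against 15.9% of all coding genes, and 1 member had peaks of both lists, against 14%. For the 60 other myeloid genes, pair 2 had 22 at a window of 3000 bp (39.0% of all coding genes) and 19 at a -log10 q of at least 5 (35.5%). Pair 1 had 0 of them (7.1%) and 1 (3.19%) at these settings. Leaving out a replicate pair gave 6 to 35 of them. At the other settings run, each count was within 1.5 times its reported value. No paired analysis was possible because each list is already 1 IgD library against its IgG library and the results come from no test. The lists hold called peaks only: at the commonest background the fewest fragments of a called peak were 9 in pair 1 and 8 in pair 2. Signal below what was called at these genes, most of whose pair 2 peaks sat above that background, cannot be seen in the lists.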
